A study of Mustela putorius furo and Mus musculus with 4 samples.

Results

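The nuclear factor I (NFI) family was followed in single cells of the embryonic cortex of mouse and ferret. Its members *Nfia*, *Nfib*, *Nfic* and *Nfix* were taken by their symbols, and all 4 had a row among the 17170 genes of the mouse table and, in upper case, among the 22008 genes of the ferret table. The mouse cells came from embryonic day (E) 18 cortex, from 1 library of *hGFAP-Cre*;*Smo* F/F embryos (Smo-cKO), which lose the SHH signal transducer *Smo* in radial glia, and 1 library of *Smo* F/F littermates without Cre (control, called wild type in the labels). The labels name CD1 as the strain of both. Cells touching the lateral ventricle had been labelled with CellTrace Yellow (FlashTag) at E17 and sorted. This favours recently ventricular cells and their progeny, but both libraries also held cells with microglial or vascular markers. *hGFAP-Cre* acts in medial cortical radial glia first and then in nearly all of them, and later also in radial glia of the lateral ganglionic eminence, a source of inhibitory neurons. How many embryos went into each mouse library is not given in the sources used here. The ferret cells came from the E39 cortex of 1 embryo without genetic change, for which no dye or sort is described. They form 2 barcode sets, called set 1 and set 2, which were not tied to the 2 labelled ferret samples. Their spread is not one between embryos. The sets differed in cell content: cells classed by inhibitory lineage markers made up 1.14% of set 1 and 7.93% of set 2. What sets them apart is not given in the sources used here.

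NFI proteins are transcription factors that bind a palindromic DNA motif as dimers. In the forebrain *Nfia*, *Nfib* and *Nfix* are known for turning radial glia from self-renewal towards differentiation and for the onset of gliogenesis, where *Nfia* works downstream of and together with *Sox9*, and they are also needed for callosal and hippocampal development. *Nfic* is best known from tooth root formation. In the GRCm38 mouse annotation (GENCODE M21) *Nfib* lies on chromosome 4 from 82290173 to 82705750 (minus strand) and *Nfia* on the same chromosome from 97772734 to 98118874 (plus strand). *Nfix* lies on chromosome 8 from 84699876 to 84800344 and *Nfic* on chromosome 10 from 81396186 to 81455635, both on the minus strand. The members' annotated transcripts shared 0 stretches of 50 bases with each other, and no other gene's exons overlapped theirs on the same strand. Genes on the opposite strand with rows of their own (*E130114P18Rik* at *Nfia*, *Gm11266* at *Nfib*, *Gm16104* at *Nfic*, *G430095P16Rik* and *Lyl1* at *Nfix*) did overlap, and whether the counting used strand is not given in the sources used here.

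Depth, classes and the deleted gene were looked at before the members. After the gene and mitochondrial limits, 10498 control, 7209 Smo-cKO and 10185 and 13052 ferret cells remained, with median depths of 4034, 4836, 2556 and 3563 UMIs per cell. The lowest depth was 2454 UMIs in control and 1068 in Smo-cKO, where 418 cells lay below the control minimum. Between the mouse libraries 28 barcodes were shared and between the ferret sets 38. Each cell was put in a class by how many markers of each list it had a UMI for, and the classes are named with "-like". Of the mouse cells 1389 control and 1065 Smo-cKO cells were radial glia (RG)-like without cell cycle markers, led by *Aldoc*, *Clu*, *Cspg5* and *Fabp7*, and cells close to 2 lists were left out as ambiguous (21.9% of control and 25.9% of Smo-cKO cells). *Smo* had 105 UMIs in control RG-like cells, 16.4 per 1000000 UMIs (CPM), and 2 in Smo-cKO RG-like cells, 0.277 CPM. The libraries had been assigned to genotypes by their stated cell numbers only, and *Smo* did not go against that assignment.

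In control mouse cortex *Nfia*, *Nfib* and *Nfix* were abundant in the whole pyramidal neuron (PyN) lineage, but they differed in how their level moved along it. *Nfib* and *Nfix* were several-fold higher in neurons than in radial glia, whereas *Nfia* stayed within a narrow range. Each value below is a sum of UMIs over the cells of a class, with its exact Poisson 95% interval. With 1 library per genotype these intervals cover counting error only, not the spread between embryos, and no test was made.

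*Nfib* was at 816 CPM (794 to 838) in RG-like cells and 1125 CPM (1100 to 1149) in intermediate progenitors of pyramidal neurons (PyN-IPC-like, marked by *Eomes* and *Neurog2*). It was highest in newborn PyN-like cells, marked by *Neurod1* and *Unc5d*, at 2744 CPM (2697 to 2791). Upper layer PyN-like cells had 2251 CPM and deep layer PyN-like cells 2288 CPM, which did not differ beyond counting error. The newborn PyN-like level was 3.36 times the RG-like level (95% interval 3.26 to 3.47). *Nfix* had the steepest course of the family: it was at 347 CPM (333 to 362) in RG-like, 927 CPM in PyN-IPC-like and 1460 CPM (1426 to 1495) in newborn PyN-like cells, a newborn-to-RG ratio of 4.21 (4.01 to 4.41). PyN-IPC-like cells were already at 2.67 times the RG-like level (2.54 to 2.80). For *Nfib* the PyN-IPC-like level was 1.38 times that of RG-like cells (1.33 to 1.43).

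*Nfia* was at 1135 CPM (1109 to 1161) in RG-like cells, dipped to 907 CPM (886 to 929) in PyN-IPC-like cells and was at 1285 CPM (1253 to 1317) in newborn PyN-like cells. The newborn-to-RG ratio was 1.13 (1.09 to 1.17), and upper layer PyN-like cells, at 1038 CPM, had 0.915 times the RG-like level (0.877 to 0.954). *Nfic* was the scarce member, at 27.6 CPM in newborn PyN-like, 30.3 CPM in PyN-IPC-like and 42.2 CPM in RG-like cells. Its newborn-to-RG ratio of 0.654 (0.528 to 0.808) ran opposite to those of *Nfib* and *Nfix*. In control, 2 of the 4 members were at least 1.5-fold higher in newborn PyN-like than in RG-like cells, beside 23.3% of 10068 genes. In Smo-cKO it was the same 2 members, *Nfib* and *Nfix*, beside 25.4% of genes, with ratios of 3.88 (3.75 to 4.01) and 5.52 (5.24 to 5.82).

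**Figure D1:**
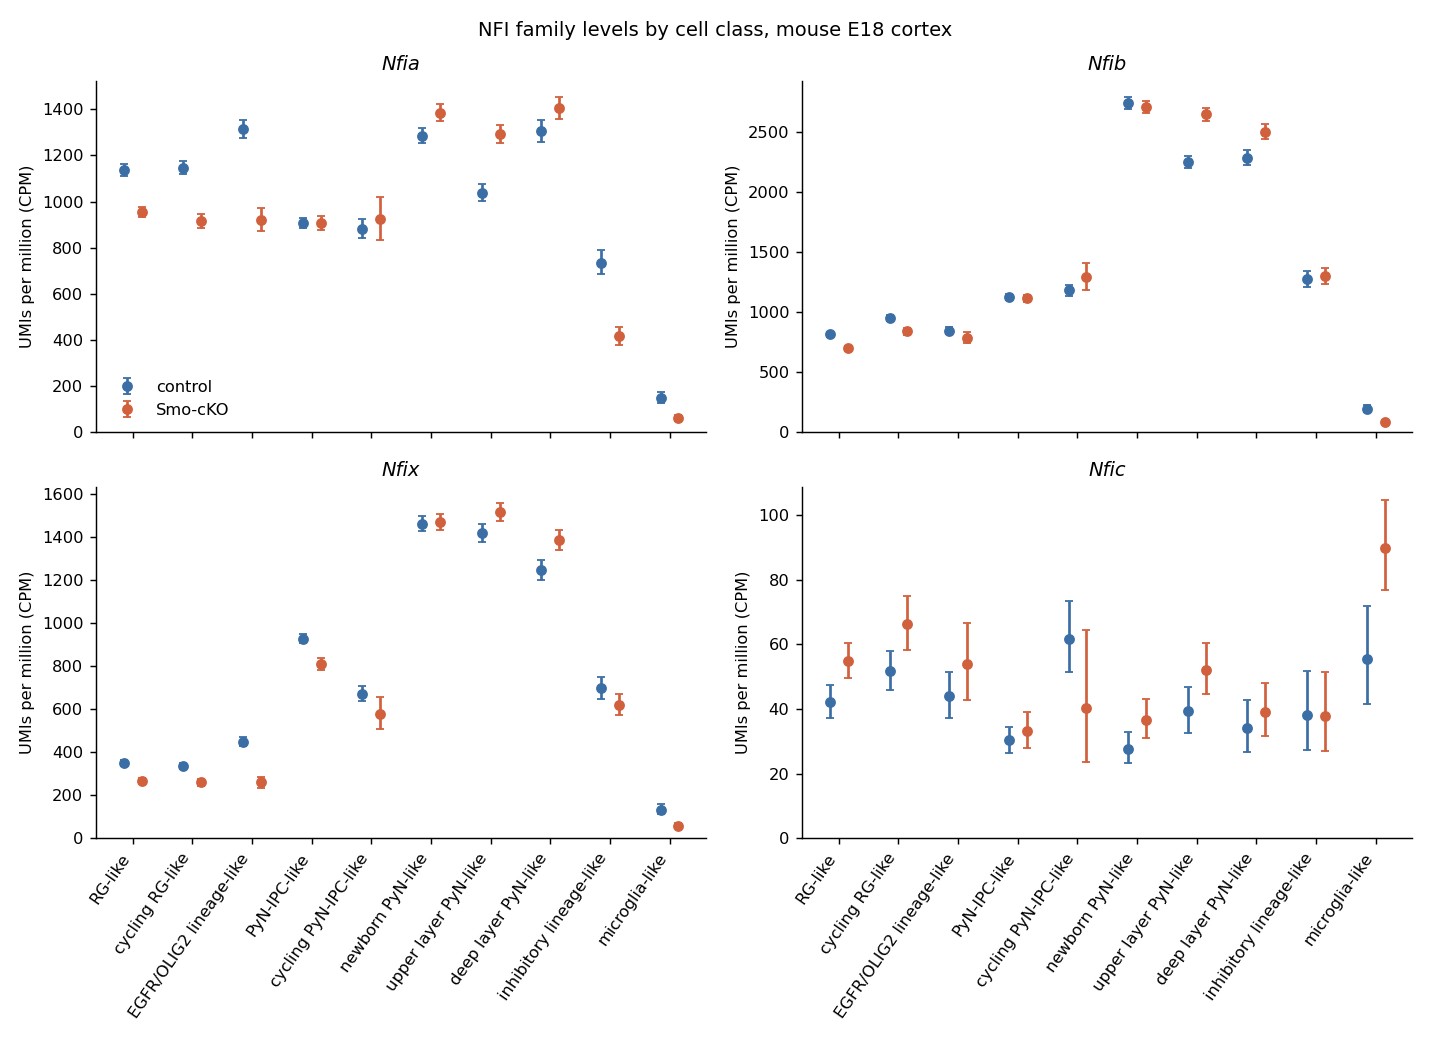
CPM of each member (vertical axis, a separate scale per panel, starting at 0) in 10 cell classes of the control and Smo-cKO libraries, with exact Poisson 95% intervals that cover counting error only. *Nfib* and *Nfix* are higher in the neuron classes than in RG-like cells in both libraries, *Nfia* lies between 883 and 1313 CPM in the 8 radial glia, progenitor and pyramidal neuron classes of control, and *Nfia*, *Nfib* and *Nfix* are lowest in microglia-like cells among the classes plotted.

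Cycling RG-like control cells had 1146 CPM of *Nfia* and 336 CPM of *Nfix*, which did not differ from non-cycling cells beyond counting error, and 950 CPM of *Nfib* (925 to 976), above the 816 CPM of non-cycling cells. Cycling PyN-IPC-like cells had less *Nfix* than non-cycling ones, 671 CPM (636 to 708) against 927 CPM (905 to 949). They also held the highest control level of *Nfic*, 61.7 CPM (51.3 to 73.5), against 30.3 CPM in non-cycling PyN-IPC-like cells.

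Outside the pyramidal lineage, EGFR/OLIG2 lineage-like cells (glial and interneuron progenitors marked by *Egfr*, *Olig1* and *Olig2*) resembled radial glia for *Nfib*, at 848 CPM. They had the highest control level of *Nfia*, 1313 CPM (1275 to 1352), which did not differ from that of deep layer PyN-like cells (1305 CPM) beyond counting error, and 448 CPM of *Nfix*. Inhibitory lineage-like cells (*Dlx* and *Gad* genes) had 735 CPM of *Nfia*, 1275 CPM of *Nfib* and 696 CPM of *Nfix*. Vascular-like cells, 51 in control, had 509, 575 and 136 CPM.

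Microglia-like cells were lowest for all 3 abundant members, with 151 CPM of *Nfia*, 197 CPM of *Nfib* and 132 CPM of *Nfix* in control, the last not different from vascular-like cells beyond counting error. The same cells held UMIs of markers of other classes: all 8 newborn PyN markers, summing to 147 CPM, and 9 of the 10 RG markers, summing to 164 CPM, while 9 of the 10 inhibitory lineage markers were at 0. Their levels are used here as a rough mark of RNA from other cells. The UMIs were unevenly spread: the 196 *Nfib* UMIs of control lay in 27 of the 98 microglia-like cells. Of these control cells 32.7% had no UMI of any member. Background in every droplet and droplets holding more than 1 cell were not told apart. At a fixed depth of 2000 UMIs, a *Nfia* UMI is expected in 83.4% of control RG-like cells and 20.0% of microglia-like cells, whose median depths were 4336 and 8101 UMIs. *Nfic* had no such low class. At 55.3 CPM in control microglia-like cells it was not below the neural classes, and in the order of its control levels each class overlapped its neighbour within counting error.

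The make-up of the family turned over along the lineage. UMIs of 3′ libraries are not scaled to transcript length, so shares are compared between classes and not between members. *Nfia* held 48.5% of the family's UMIs in control RG-like cells (47.7 to 49.3, exact binomial 95% interval), 30.4% in PyN-IPC-like and 23.3% (22.8 to 23.8) in newborn PyN-like cells. *Nfib* went from 34.9% in RG-like to 49.7% in newborn PyN-like cells, and *Nfix* from 14.8% to 26.5%, with its highest share, 31.0%, in PyN-IPC-like cells. EGFR/OLIG2 lineage-like cells had a make-up close to that of radial glia, with 49.5% *Nfia*. They also held RG markers, summing to 1953 CPM in control against 5513 CPM in RG-like cells, beside 1454 CPM of their own list. Of the 417 control cells 214 had just the minimum of 3 markers. The part of mixed cells in this likeness was not tested. Smo-cKO RG-like cells had nearly the same make-up as control, with 48.4% *Nfia* and 35.4% *Nfib*, a somewhat smaller share of *Nfix* (13.5%) and a larger one of *Nfic* (2.77% against 1.80%).

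**Figure D2:**
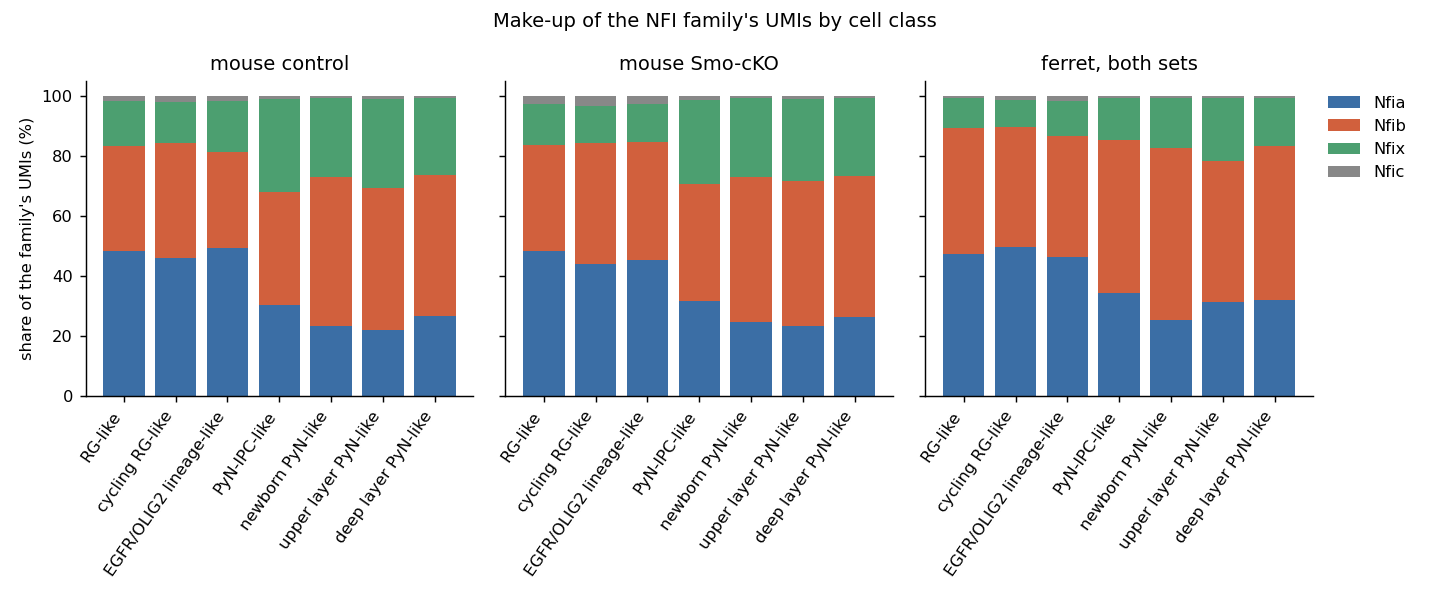
Share of the family's UMIs held by each member (stacked bars, percent) in 7 cell classes of mouse control, mouse Smo-cKO and ferret. The *Nfia* share is between 43.9% and 49.5% in the RG-like, cycling RG-like and EGFR/OLIG2 lineage-like classes of all 3, and between 21.9% and 31.9% in the newborn, upper and deep layer PyN-like classes.

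Most cells of the lineage held UMIs of *Nfia*, *Nfib* and *Nfix* together. This was so for 61.9% of control RG-like cells (59.3 to 64.5), 79.6% of PyN-IPC-like, 89.0% of newborn PyN-like and 93.1% of deep layer PyN-like cells, although newborn PyN-like cells were shallower (median 3125 UMIs) than RG-like cells (4336 UMIs). In microglia-like cells, at 8101 UMIs, it was 22.4%. Of control RG-like cells 0.720% had no UMI of any member, compared with 14.2% of inhibitory lineage-like cells.

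*Gfap*, the astroglial intermediate filament gene that NFI factors are known to activate, was used to split the RG-like cells. In control the members did not differ with *Gfap* beyond counting error: the 354 RG-like cells with a *Gfap* UMI had 1.01 times the *Nfia* level of the 1035 cells without one (0.961 to 1.06), 1.04 times the *Nfib* level and 1.04 times the *Nfix* level (0.948 to 1.14). In Smo-cKO the 399 cells with a *Gfap* UMI had 1.19 times the *Nfix* level of the 666 others (1.09 to 1.30), and 1.02 times their *Nfia* level (0.974 to 1.07). Cells with a *Gfap* UMI were deeper, with medians of 7652 against 6145 UMIs in Smo-cKO and 4556 against 4215 UMIs in control.

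Ferret cells shared the change in make-up but reached it by a different course of *NFIA*. *NFIA* was at 1094 CPM (1020 to 1172) in set 1 and 1220 CPM (1170 to 1272) in set 2 in RG-like cells, and at 550 and 742 CPM in newborn PyN-like cells. Over both sets the newborn-to-RG ratio was 0.585 (0.559 to 0.612), whereas in mouse control it was 1.13. Upper layer PyN-like cells had 529 CPM in set 1 and 667 CPM in set 2, and deep layer PyN-like cells 673 and 761 CPM, so all 3 pyramidal neuron classes were below both RG-like classes in both sets. The species also differ in stage, sorting, gene models and depth, and these cannot be told apart from species here.

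*NFIB* was at 839 CPM in set 1 and 1140 CPM in set 2 in RG-like cells, and was highest in newborn PyN-like cells of set 1 (1392 CPM) and in PyN-IPC-like cells of set 2 (1745 CPM). The newborn-to-RG ratio over both sets was 1.49 (1.43 to 1.55). Upper layer PyN-like cells had 767 CPM in set 1 and 1015 CPM in set 2, 0.858 times the RG-like level over both sets (0.825 to 0.894), where mouse control had 2.76 times (2.66 to 2.86). *NFIX* was at 219 and 254 CPM in RG-like, 433 and 467 CPM in newborn PyN-like and 397 and 419 CPM in upper layer PyN-like cells, a newborn-to-RG ratio of 1.88 (1.73 to 2.05). *NFIC* stayed between 0 and 41.4 CPM, and its newborn-to-RG ratio was 0.809, with an interval from 0.572 to 1.16 that included 1. *NFIX* was at least 1.5-fold higher in newborn PyN-like than RG-like cells, beside 17.4% of 11108 genes. *NFIB* lay just under that threshold and passed it in set 1 alone, at 1.66, and with classes set by clusters, at 2.33, but not in set 2 alone, at 1.43. In upper layer PyN-like cells 2 of 4 members, *NFIA* and *NFIC*, were at least 1.5-fold lower than in RG-like cells, beside 27.2% of 13037 genes.

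**Figure D3:**
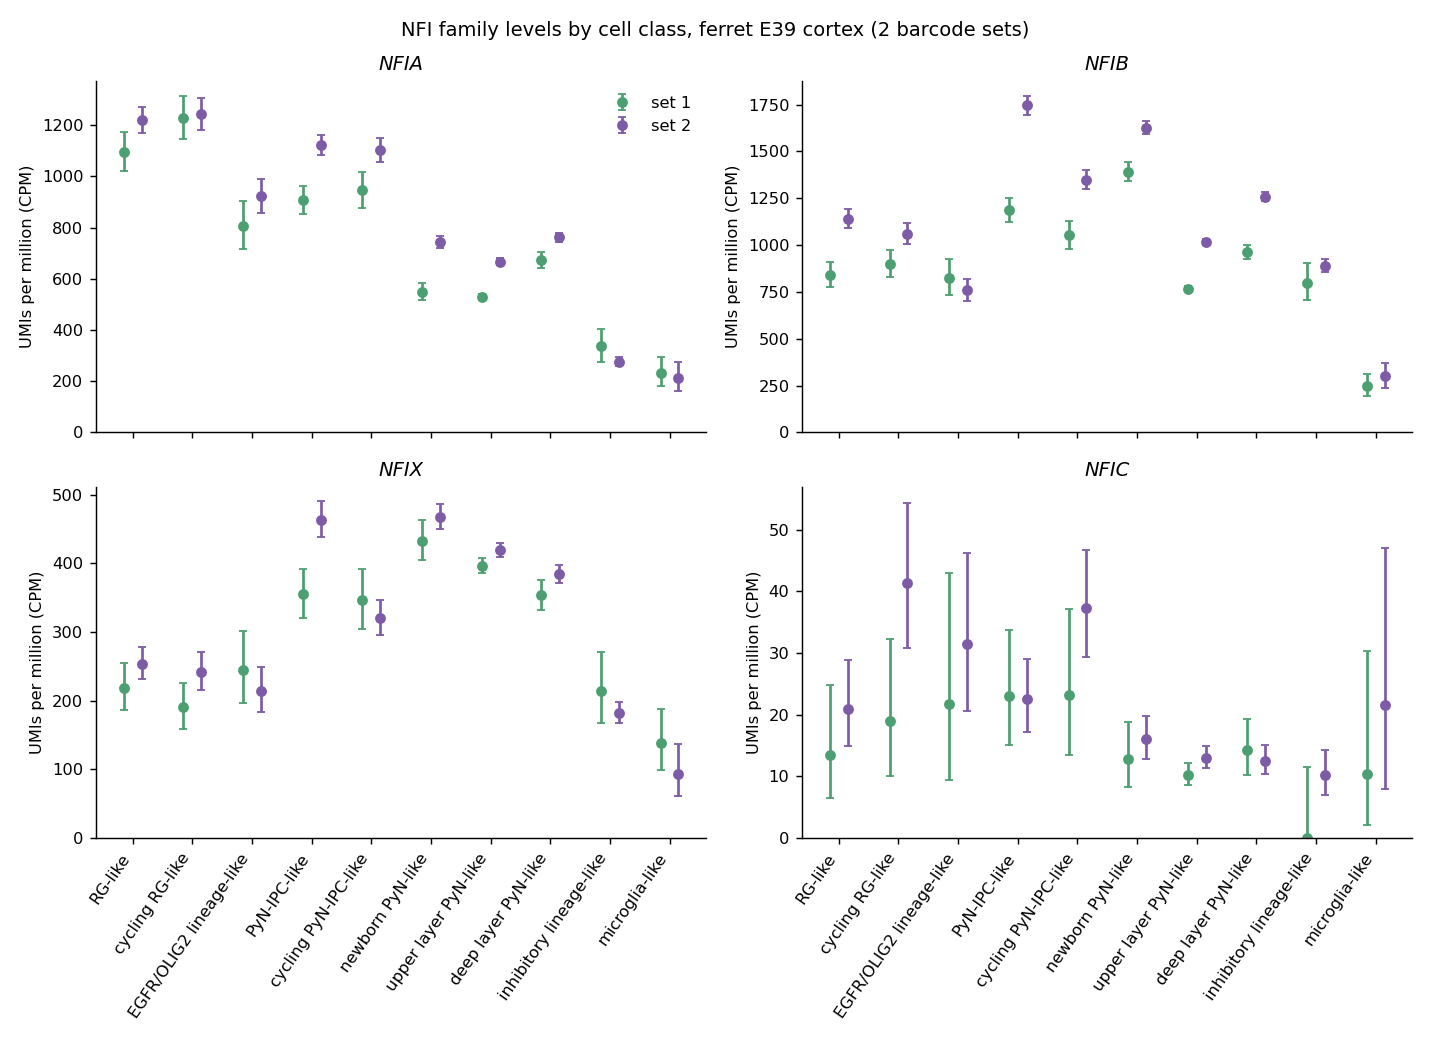
CPM of each member (vertical axis, a separate scale per panel, starting at 0) in 10 cell classes of ferret E39 cortex, by barcode set, with exact Poisson 95% intervals. *NFIA* is between 1094 and 1242 CPM in the RG-like and cycling RG-like classes and at most 761 CPM in the 3 pyramidal neuron classes of both sets, and *NFIB* is higher in set 2 than in set 1 in the RG-like, PyN-IPC-like and pyramidal neuron classes.

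Set 2 was above set 1 for *NFIA*, *NFIB* and *NFIX* in RG-like, PyN-IPC-like, newborn, upper and deep layer PyN-like cells, and it was also the deeper set in each of these classes. The sets' intervals overlapped for *NFIA* in RG-like cells and for *NFIX* in RG-like, newborn and deep layer PyN-like cells. The make-up moved alike in both: *NFIA* held 50.5% of the family's UMIs in RG-like and 23.0% in newborn PyN-like cells of set 1, and 46.3% and 26.0% in set 2. Ferret inhibitory lineage-like cells, 116 in set 1 and 1035 in set 2, had the lowest neural *NFIA* levels, 336 and 276 CPM, which overlapped those of microglia-like cells (232 and 213 CPM), while their *NFIB* levels of 799 and 890 CPM did not.

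The comparison of Smo-cKO with control asks whether loss of SHH-SMO signalling in radial glia changes the family. In RG-like cells *Nfia*, *Nfib* and *Nfix* were each lower in the Smo-cKO library and *Nfic* was higher. *Nfia* was at 1135 CPM in control and 955 CPM in Smo-cKO, a ratio of 0.842 (0.814 to 0.870). *Nfib* was at 816 and 699 CPM, a ratio of 0.857 (0.824 to 0.891), and *Nfix* at 347 and 266 CPM, a ratio of 0.766 (0.720 to 0.814). *Nfic* was at 42.2 and 54.8 CPM, a ratio of 1.30 (1.11 to 1.52). None of the 4 reached 1.5-fold, beside 12% of 10415 genes that did. The median log2 ratio of the members was -0.24, beside -0.02 over all genes (quartiles -0.20 and 0.18), and 20.6% of all genes had a ratio as low as that of *Nfia* or lower. Cycling RG-like cells gave like ratios, 0.798 for *Nfia*, 0.888 for *Nfib*, 0.775 for *Nfix* and 1.28 for *Nfic*, with none past 1.5-fold beside 10.9% of genes.

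Several measured differences between the libraries ran alongside. The members' levels in microglia-like cells were also lower in Smo-cKO: *Nfia* was at 151 CPM in control and 61.8 CPM in Smo-cKO, *Nfib* at 197 and 84.6 CPM and *Nfix* at 132 and 56.4 CPM. All 4 members passed 1.5-fold in that class, *Nfic* in the higher direction, beside 25.8% of genes. With the microglia-like level of each library subtracted, as if it were even over cells, the RG-like ratio was 0.908 for *Nfia*, 0.993 for *Nfib* and 0.972 for *Nfix*. RG-like cells of Smo-cKO were deeper, with a median of 6621 against 4336 UMIs. Within 4000 to 8000 UMIs the ratio was 0.911 for *Nfia* (0.872 to 0.952), 0.881 for *Nfib* and 0.772 for *Nfix*. The newborn PyN markers, all 8 detected, summed to 124 CPM in control RG-like cells and 79.0 CPM in Smo-cKO ones. The PyN-IPC (374 and 342 CPM), EGFR/OLIG2 lineage, Cajal-Retzius and cycling lists were also lower in Smo-cKO. The upper layer list ran the other way, 299 against 340 CPM. So did the vascular (56.2 and 80.3 CPM), erythroid (14.6 and 34.0 CPM) and microglia (3.12 and 10.4 CPM) lists. The deep layer, inhibitory lineage, meninges and choroid plexus lists were higher in Smo-cKO as well. The part of depth and of RNA from other cells in the result was not tested.

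RG-like cells of the 2 libraries also fell largely in different clusters. The clustering pooled the libraries without aligning them. Different cells and a change of expression in the same cells therefore cannot be told apart. The cluster led by *Prm1* held 817 Smo-cKO and 37 control cells of any class. When cells were clustered without the members, 53.4% of control RG-like cells lay in a cluster led by *Fgfbp3* and *Tst*, and 64.1% of Smo-cKO RG-like cells in a cluster led by *Prm1* and *Id3*. Another cluster, led by *1500015O10Rik*, *Igfbp5* and *Mt1*, held 362 control and 228 Smo-cKO cells. Within it *Nfia* was at 1148 CPM in control and 985 CPM in Smo-cKO, a ratio of 0.859 (0.802 to 0.919), close to that of the class. *Nfib* had a ratio of 0.926 (0.855 to 1.00) and *Nfix* of 0.836 (0.741 to 0.943) there. In the other 2 clusters, with 43 Smo-cKO and 29 control cells at the fewest, the *Nfia* ratio was 0.785 (0.686 to 0.894) in the *Fgfbp3* cluster and 0.764 (0.661 to 0.889) in the *Prm1* cluster. *Nfix* was further from 1 than in the whole class in both, at 0.536 (0.371 to 0.752) and 0.614 (0.473 to 0.812). *Nfib* went opposite ways, at 0.615 (0.507 to 0.740) and 1.04 (0.853 to 1.29). *Nfic* had ratios of 1.32, 1.67 and 2.04 in the 3 clusters, each with an interval that included 1. With all RG-like clusters taken as the class, the ratio stayed at 0.854 for *Nfia* and came to 0.995 for *Nfib* and 0.950 for *Nfix*, although *Nfix* was lower within each of the 3 clusters. For the class as a whole, over every class rule, scaling, depth and subtraction tried, the *Nfia* ratio lay between 0.803 and 0.911. In single clusters it was as low as 0.764.

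**Figure D4:**
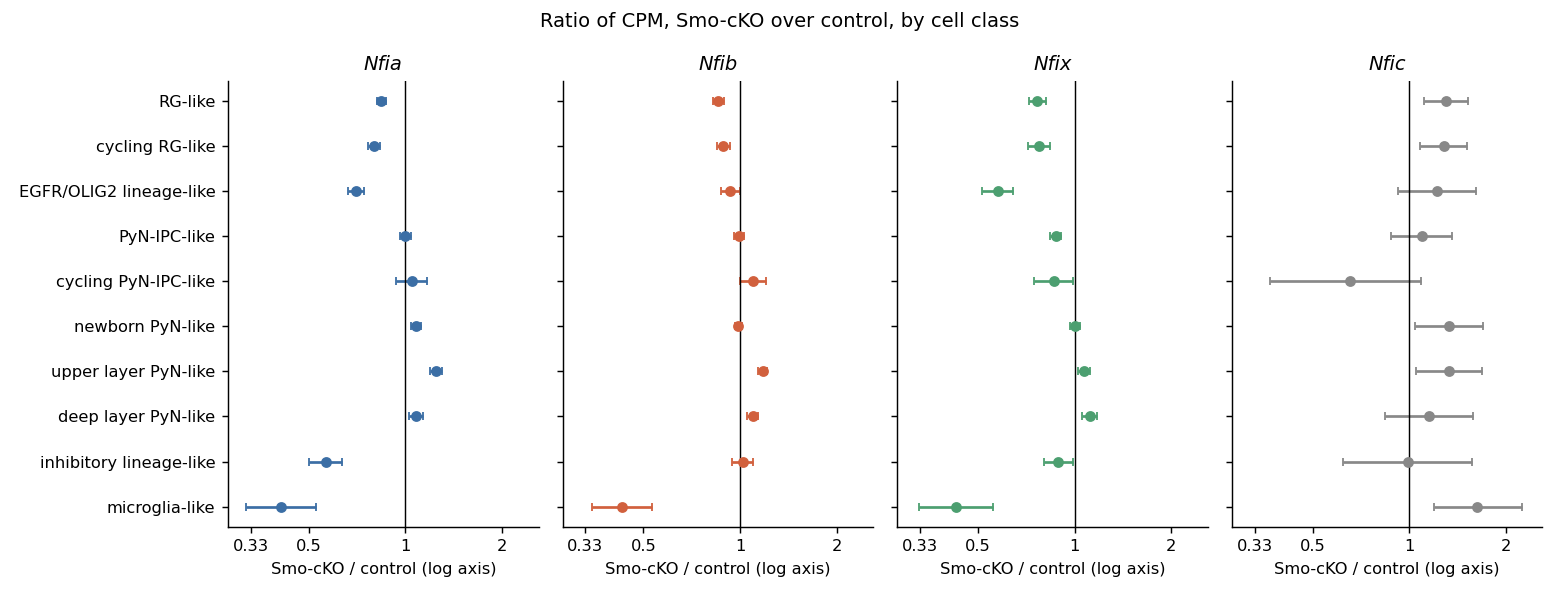
Ratio of CPM, Smo-cKO over control (horizontal log axis; the line marks 1), in 10 cell classes for each member, with exact conditional 95% intervals that cover counting error only. *Nfia* and *Nfix* lie below 1 in the RG-like, cycling RG-like and EGFR/OLIG2 lineage-like classes and at or above 1 in newborn, upper and deep layer PyN-like cells, and *Nfic* lies above 1 in 8 of 10 classes.

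In upper and deep layer PyN-like cells all 4 members had ratios above 1, though the deep layer interval of *Nfic* included 1. Upper layer PyN-like cells had 1038 CPM of *Nfia* in control and 1292 CPM in Smo-cKO, a ratio of 1.24 (1.19 to 1.30), and 2251 and 2650 CPM of *Nfib*, a ratio of 1.18 (1.14 to 1.21). Their *Nfix* ratio was 1.07 (1.03 to 1.11). With classes set by clusters the upper layer ratio of *Nfia* was 1.74 and that of *Nfic* 1.89, both past 1.5-fold. The 2 upper layer clusters held the libraries in different proportions, 182 control and 419 Smo-cKO cells in the one led by *Nrp1* and *Cntn2* and 206 and 75 in the one led by *Mef2c* and *Stmn2*. In upper layer PyN-like cells the cycling list, all 9 markers detected, summed to 425 CPM in control and 148 CPM in Smo-cKO, and the newborn PyN list, all 8 detected, to 1094 and 1447 CPM. The upper layer list itself was at 2132 and 1848 CPM and the RG list at 580 and 707 CPM. The part of these differences in the result was not tested. Deep layer PyN-like cells had ratios of 1.08 for *Nfia*, 1.09 for *Nfib*, 1.11 for *Nfix* (1.06 to 1.17) and 1.15 for *Nfic* (0.839 to 1.58). This class was loosely set: 237 of its 432 control and 188 of its 453 Smo-cKO cells had just the minimum of 3 markers. With classes set by the raw number of markers it had 88 and 78 cells, and no mouse cluster was named deep layer PyN. In newborn PyN-like cells *Nfia* had a ratio of 1.08 (1.04 to 1.12), while *Nfib*, at 0.987 (0.963 to 1.01), and *Nfix*, at 1.01 (0.971 to 1.04), did not differ beyond counting error. No member passed 1.5-fold in these classes, beside 7.85% of genes in upper layer, 8.32% in deep layer and 6% in newborn PyN-like cells. In PyN-IPC-like cells *Nfia* was at 907 CPM in both libraries, a ratio of 0.999 (0.960 to 1.04). *Nfix* was lower there, with a ratio of 0.874 (0.838 to 0.910), and 8.93% of genes passed 1.5-fold. Cycling PyN-IPC-like cells, only 62 in Smo-cKO, also had none of the members past 1.5-fold, beside 16% of genes, with ratios of 1.05 for *Nfia* and 0.861 for *Nfix*. *Nfic* had a ratio of 0.653 (0.369 to 1.09) there, on 17 Smo-cKO UMIs, which was within 1.5-fold once 0.5 UMI was added to each library.

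The largest differences outside microglia-like cells were in the EGFR/OLIG2 and inhibitory lineages. EGFR/OLIG2 lineage-like cells, 417 in control and 125 in Smo-cKO, had 1313 and 921 CPM of *Nfia*, a ratio of 0.702 (0.660 to 0.745), and 448 and 258 CPM of *Nfix*, a ratio of 0.576 (0.515 to 0.644). *Nfib* was at 848 and 790 CPM. Their median depth was 7394 UMIs in control and 11162 UMIs in Smo-cKO, and the cycling list summed to 3281 and 2279 CPM in them. *Nfix* was the 1 member past 1.5-fold, beside 12.2% of genes. With classes set by the raw number of markers, which left 81 control and 17 Smo-cKO cells, the ratios were 0.449 for *Nfia*, 0.499 for *Nfib*, 0.266 for *Nfix* and 0.458 for *Nfic*. With classes set by clusters they were 0.831 for *Nfia*, 0.878 for *Nfib*, 0.620 for *Nfix* and 0.976 for *Nfic*. Inhibitory lineage-like cells, 211 and 288, had 735 and 416 CPM of *Nfia*, a ratio of 0.566 (0.502 to 0.636), but 1275 and 1302 CPM of *Nfib*, a ratio of 1.02 (0.946 to 1.10). *Nfia* was the 1 member past 1.5-fold there, beside 17.5% of genes. *Nfia* held 26.8% of the family's UMIs in control and 17.5% in Smo-cKO inhibitory lineage-like cells, and a *Nfia* UMI is expected in 57.9% and 40.9% of them at 2000 UMIs. Other marker lists moved in the same cells, whose median depths were 4452 and 3142 UMIs. The cycling list, all 9 markers detected in both, summed to 1182 CPM in control and 308 CPM in Smo-cKO, and the PyN-IPC list, with 2 of 9 markers at 0 in Smo-cKO, to 950 and 392 CPM. The RG list was at 793 and 503 CPM, the newborn PyN list at 518 and 256 CPM, and the upper layer list at 778 and 1065 CPM. The inhibitory lineage list itself was at 1666 CPM in control and 2863 CPM in Smo-cKO. Of the inhibitory clusters, the one led by *Dlx6os1* and *Dlx1* held 91 control and 186 Smo-cKO cells. The one led by *Maf* and *Lhx6* held 87 and 110. *Smo* had 9 UMIs in control and 2 in Smo-cKO inhibitory lineage-like cells, a ratio of 0.225 with an interval (0.0237 to 1.09) that included 1. The part of these differences in the *Nfia* ratio was not tested.

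*Nfic* was higher in Smo-cKO in 8 of 10 classes, with 5 intervals above 1 and 0 below. Its ratio was 1.33 (1.04 to 1.69) in newborn PyN-like and 1.33 (1.05 to 1.69) in upper layer PyN-like cells. In microglia-like cells, at 55.3 and 90.0 CPM, it was 1.63 (1.19 to 2.25), the largest of all classes and opposite to the other 3 members. These values rest on 17 to 396 UMIs per class and library.

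The genes that act with NFI in radial glia were taken from a list of 24: upstream and partner factors, Notch side and targets. Of them 21 had enough UMIs in RG-like cells, and 3 passed 1.5-fold between the libraries, beside the 12% of all genes given above; the other 3 (*Apcdd1*, *Insc* and *S100b*) had at most 5 UMIs. The median log2 ratio of the 21 was -0.08. Among partner factors, *Sox9*, which induces *Nfia*, was at 515 CPM in control and 478 CPM in Smo-cKO (ratio 0.927). *Zbtb20*, a zinc finger factor of astrocyte development, was at 482 and 317 CPM, a ratio of 0.656 (0.622 to 0.693), and was the 1 listed gene at least 1.5-fold lower.

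On the Notch side the Notch effector *Hey1* was at 35.7 and 59.6 CPM, a ratio of 1.67 (1.42 to 1.97), while *Hes5*, another effector, was at 283 and 313 CPM (ratio 1.11). Among the targets, the water channel gene *Aqp4* was at 20.1 CPM in control and 65.7 CPM in Smo-cKO, a ratio of 3.27 (2.69 to 4.01). *Gfap*, named as the gene of the split above, was at 99.2 and 136 CPM, a ratio of 1.37 (1.24 to 1.52), and the fatty acid binding protein gene *Fabp7* at 20365 and 23493 CPM (ratio 1.15). The creatine kinase gene *Ckb* had a ratio of 1.04 and the N-cadherin gene *Cdh2* one of 0.902. Of the 11 targets with enough UMIs 1 was at least 1.5-fold higher and 0 lower, and their median log2 ratio was 0.05.

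**Figure D5:**
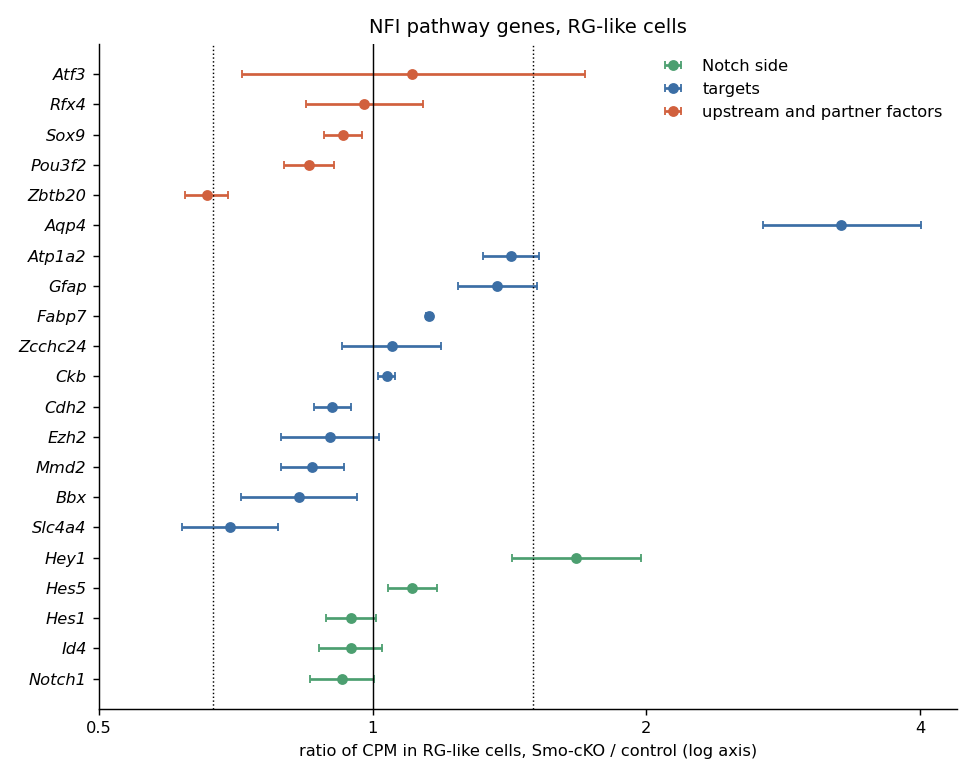
Ratio of CPM in RG-like cells, Smo-cKO over control (horizontal log axis), of the 21 listed genes with enough UMIs, coloured by group, with exact conditional 95% intervals; the solid line marks 1 and the dotted lines 1.5-fold in each direction. *Aqp4* and *Hey1* lie above the upper dotted line and *Zbtb20* below the lower one.

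The members' courses over the 11 control classes were compared as a description, over points that share 1 library; the 10 Smo-cKO classes and 11 ferret classes were read the same way. *Nfib* and *Nfix* were most alike (Pearson r = 0.923 on log2(CPM + 10)), *Nfia* was closer to *Nfib* (r = 0.822) than to *Nfix* (r = 0.687), and *Nfic* ran against *Nfix* (r = -0.732). The control classes include vascular-like and microglia-like cells, where *Nfia*, *Nfib* and *Nfix* were all at their lowest, and r without them was not computed. Within the pyramidal lineage *Nfia* and *Nfib* differed, with control newborn-to-RG ratios of 1.13 and 3.36. The nearest genes below were found over the same classes. In ferret *NFIB* and *NFIX* were again the closest pair, at r = 0.868, and *NFIC* had r = 0.639 with *NFIA*. Among all other genes, *Mn1* was among the 5 nearest to *Nfix*, with r = 0.988 in control, 0.984 in Smo-cKO and 0.912 in ferret. *Pou3f3*, a neural POU factor, was among the 5 nearest to *Nfib*, with r = 0.977 in control, 0.978 in Smo-cKO and 0.907 in ferret, and *Cdkn1b*, the cell cycle inhibitor p27, had 0.978, 0.917 and 0.833. The other 3 nearest to *Nfib* were *Ppm1b*, *Meis2* and *Zfp462*, and the other 4 nearest to *Nfix* were *Fam193b*, *Marcksl1*, *Zfp637* and *Mex3a*. *Nfia* had *Mettl9* near it in both species (r = 0.951 in control and 0.882 in ferret), beside *Gm3764*, *Upf3a*, *Gm37494* and *B230354K17Rik*. The 5 nearest to *Nfic*, *Plscr1*, *Tmem194*, *Pole*, *Txn1* and *Usp25*, had r from 0.873 to 0.923 in control but from 0.161 to 0.793 in Smo-cKO.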

How the data were processed

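The authors deposited UMI counts per gene and cell from 10x Genomics libraries processed with Cell Ranger (version and gene annotation not given in the sources used here; the submitters' notes list mm10 for every sample), not normalized. Mouse columns were assigned to genotypes by barcode suffix from the cell numbers that the methods state (10524 and 7596). Of these, 26 and 387 cells lay outside the limits of 750 to 5000 genes and under 10% mitochondrial UMIs and were left out. A cell joined the class with the highest standardized number of detected markers, with at least 3 markers and a lead of 0.5 SD; 3 cycling markers set cycling cells apart. No doublet caller was run. These thresholds were set after class sizes and member levels had been seen, and the members and lists were chosen with earlier results of these data known. Levels are UMIs per 1000000 summed over cells, with exact Poisson, Clopper-Pearson or conditional binomial 95% intervals. Fold calls needed 50 UMIs over both groups and added 0.5 UMI per gene; genes named were all members, listed pathway genes past 1.5-fold or among the 6 with most UMIs, and the 5 genes nearest each member (at least 200 UMIs). Alternatives used Leiden clusters (igraph 0.11.9), TMM (edgeR) and DESeq2 size factors. No *GFAP* row was used in ferret.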

Additional observations from a re-analysis of the deposited data

Results flagged for a closer look

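For 3 members the Smo-cKO to control ratio lay on opposite sides of 1 in different cell classes, with counting intervals that left out 1 on both sides. The difference between classes was not tested, since each genotype has 1 library. *Nfia* had a ratio of 1.24 in upper layer PyN-like cells and 0.566 in inhibitory lineage-like cells. *Nfib* had a ratio of 1.18 in upper layer PyN-like and 0.857 in RG-like cells. *Nfix* had a ratio of 1.11 in deep layer PyN-like and 0.576 in EGFR/OLIG2 lineage-like cells. Microglia-like cells were left out of this comparison because their level is used as a mark of RNA from other cells.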

How the results depend on the processing

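Of the recomputed values 90 stayed within the counting interval of the reported one or, for the count of genes, within 1.5 times, and 36 moved further. Genotype ratios were recomputed in RG-like, upper layer PyN-like and EGFR/OLIG2 lineage-like cells only, beside the newborn-to-RG ratios and the count of pathway genes. Genotype ratios of the other classes were not, among them 0.566 for *Nfia* in inhibitory lineage-like and 1.11 for *Nfix* in deep layer PyN-like cells. Among the recomputed ratios, none whose interval left out 1 changed direction. *Nfic* in EGFR/OLIG2 lineage-like cells, 1.22 with an interval that included 1, was 0.976 with clusters and 0.458 with the raw number of markers. The *Nfia* ratio in these cells, 0.702, was 0.831 with clusters. The cause of the shifts was not tested. The RG-like ratio of *Nfia* was 0.803 after thinning to 2000 UMIs, 0.810 as a mean over cells, 0.911 within 4000 to 8000 UMIs and 0.908 with the microglia-like level subtracted. With clusters it was 0.995 for *Nfib* and 0.950 for *Nfix*, and with the subtraction 0.993 and 0.972. The newborn-to-RG ratio in control with clusters was 1.26 for *Nfia*, 4.22 for *Nfib*, 0.832 for *Nfic* and 5.44 for *Nfix*, and with the raw number of markers 2.95 for *Nfib* and 3.15 for *Nfix*. With clusters the upper layer Smo-cKO to control ratio was 1.74 for *Nfia*, 1.47 for *Nfib*, 1.89 for *Nfic* and 1.25 for *Nfix*. The ferret newborn-to-RG ratio was 0.503 in set 1, 0.692 with clusters and 0.616 with 1 more marker for *NFIA*, 1.66, 2.33 and 1.32 for *NFIB*, and 2.32 with clusters for *NFIX*. At 2-fold, 1 pathway gene instead of 3 passed. TMM and DESeq2 size factors moved log2 ratios by at most 0.02. The raw marker rule, the depth window and the subtraction were chosen after seeing the data. No paired analysis was possible because each genotype has 1 library. Counting intervals are narrow for the abundant members, and *Nfic* is limited by depth.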
